A study of Mus musculus with 5 samples.

Results

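Acetyl-CoA reaches the cytosol, the nucleus and the mitochondrial matrix by routes other than the pyruvate dehydrogenase complex (PDC), and 9 genes that make or move it from citrate, acetate or ketone bodies were examined for acetylated histones. They are *Slc25a1*, *Acly*, *Acss1*, *Acss2*, *Acaca*, *Acat1*, *Acat2*, *Crat* and *Slc33a1*, out of 21938 protein-coding genes in the annotation. The list was set by gene function, but with earlier results of these data known. Peaks were taken that touched the gene or the 10 kb on either side of it. Chromatin immunoprecipitation and sequencing (ChIPseq) had been performed on mouse memory-type CD8+ T cells (TM), grown in IL-15 after activation, with an antibody that the methods describe as recognising acetylated lysine of histones and the sample descriptions as acetyl K18. There were 2 libraries of wildtype (WT) cells and 3 of PDH_Mutant (TPdh-/-) cells. TPdh-/- mice were bred from the Pdha1tm1ptl line and a CD4-Cre transgenic line, in which Cre is driven by the *Cd4* promoter in developing T cells. WT libraries are labelled only as wildtype, so the alleles that their mice carried, including Cre, are not given in the sources used here. Young adult mice of both sexes entered the study. The labels give neither age nor sex for a library, nor whether the libraries of a group came from separate mice, so p-values measure the spread between these libraries, which may be technical.

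Citrate made in mitochondria is carried out by SLC25A1 and split by ATP citrate lyase (ACLY) into oxaloacetate and acetyl-CoA, the main cytosolic and nuclear source in most cells. Acetate is activated by ACSS2 outside mitochondria and by ACSS1 inside them, which gives cells another supply when citrate is short. Acetyl-CoA is then spent by acetyl-CoA carboxylase (ACACA), the first committed step of fatty acid synthesis, interconverted with ketone bodies and sterol precursors by the thiolases ACAT1 and ACAT2, buffered by carnitine acetyltransferase (CRAT) and moved into the endoplasmic reticulum by SLC33A1. Histone acetyltransferases draw on the same nuclear pool, and acetylated histones mark start sites and enhancers that are in use.

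The peak lists differed in length, and every count here has to be read with that. In WT cells 15962 peaks were called in replicate 1 and 8859 in replicate 2, against 4920, 5419 and 9418 in the 3 TPdh-/- replicates in order. WT 1 stands apart, and results that rest on it are given with and without it. The read depth of each library is unknown, since only called peaks are listed and the methods state only a minimum number of reads. Fold is the enrichment over the background that the peak caller estimated, on a linear scale. The percentile of a peak is the share of its own list with a −log10 q at or below its own, and rank 1 is the strongest peak. As a check of the cell type, a peak lay within 3 kb of a start site of *Cd8b1* and *Lck* in all 5 libraries, and of 9, 6, 3, 4 and 6 of the 9 T cell markers in WT 1, WT 2 and TPdh-/- 1, 2 and 3. No library had such a peak at any of 5 myeloid markers or 5 markers of other tissues, and of 3 NK cell markers *Eomes* had one in WT 1 alone. A peak absent from a list may lie below the threshold, and in bulk chromatin fewer acetylated cells cannot be told apart from less acetylation per cell.

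At the 9 genes, 42 peaks were called in all, and a peak was called at more of them in WT than in TPdh-/- libraries. A peak lay within 10 kb of 8 of the 9 genes in WT 1 and in WT 2, and of 4, 4 and 6 in TPdh-/- 1, 2 and 3. The group means were 8 ± 0 (SD, n = 2) and 4.67 ± 1.2 (SD, n = 3), and the groups did not overlap. Over all protein-coding genes the same share was 54.0% in WT 1, 36.4% in WT 2, and 23.2%, 24.7% and 39.2% in TPdh-/- 1, 2 and 3, so the order of the libraries was not that of the genotypes there. WT 2 had a shorter list than TPdh-/- 3 and a peak at 8 of the 9 genes against 6, but the counts were 6 and 6 for peaks with a −log10 q of 2 or more and 2 and 3 for 5 or more, where the groups overlapped. When the lists were shortened to 4920 peaks each, keeping the strongest, the counts were 6 and 4 in WT and 4, 4 and 4 in TPdh-/-, which then overlapped. Over all protein-coding genes the shares at that length were 28.02% and 25.69% in WT. They were 23.20%, 23.50% and 26.64% in TPdh-/- 1, 2 and 3, so the groups overlapped there too. The shares at the limits of 2 and 5 are not given here, so the counts at those limits have no background.

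Nearer to the genes, a peak within 3 kb of an annotated start site was called at 8 and 5 of the 9 genes in WT 1 and 2, and at 2, 3 and 4 in TPdh-/- 1, 2 and 3. The means were 6.5 ± 2.12 (SD, n = 2) and 3 ± 1 (SD, n = 3). For all protein-coding genes, the shares were 42.1% and 24.8% in WT and 15.3%, 16.5% and 27.9% in TPdh-/-. At equal list length the 5 libraries had such a peak at 5, 3, 2, 3 and 2 of the genes in that order, and WT 2 and TPdh-/- 2 were equal. The shares of all protein-coding genes at that length were 19.9%, 17.1%, 15.3%, 15.8% and 18.7%. *Slc25a1* was the only one of the 9 with a start-site peak in all 5 libraries, which 10.9% of protein-coding genes had. *Slc33a1* alone had a start-site peak in each WT library but in no TPdh-/- library, as did 2.21% of protein-coding genes. These group counts were not tested, because the list was drawn up with results of these data known.

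**Figure D1:**
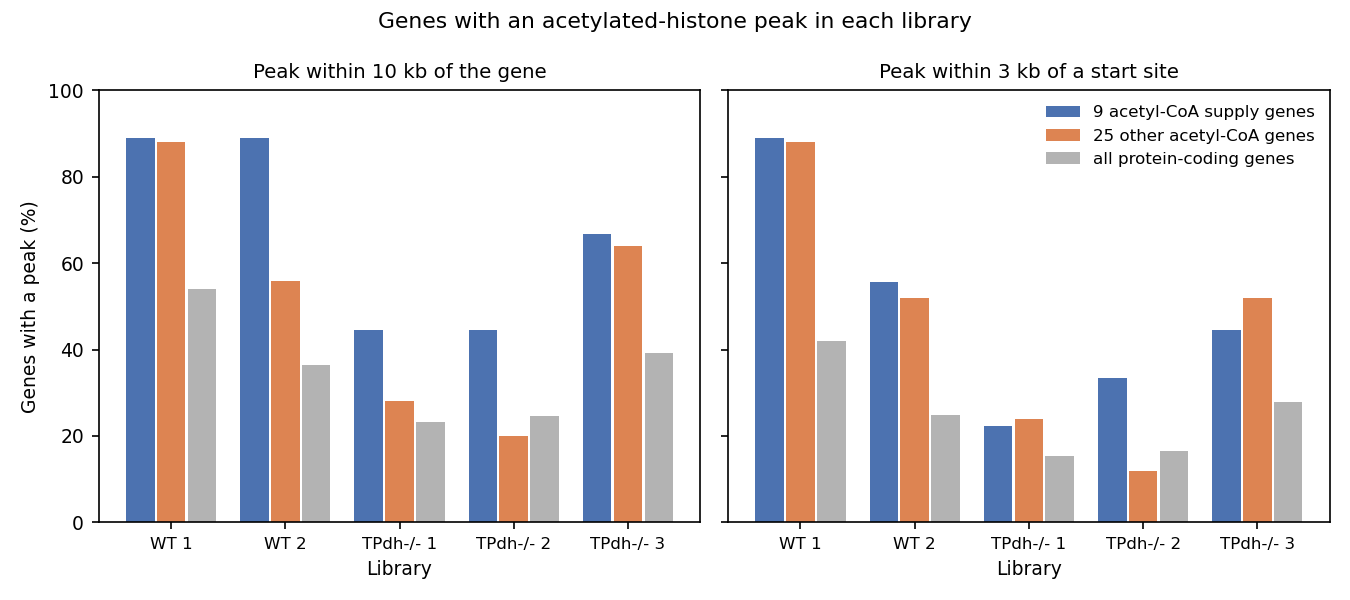
Share of genes with a peak in each library (%), within 10 kb of the gene on the left and within 3 kb of a start site on the right, for the 9 acetyl-CoA supply genes, 25 other acetyl-CoA genes and all protein-coding genes. The 9 genes sit at 88.9% in both WT libraries and between 44.4% and 66.7% in TPdh-/- on the left, and all protein-coding genes between 23.2% and 54.0%.

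Of the citrate route, *Slc25a1*, the mitochondrial citrate carrier, had the peak with the highest percentile of the 9 genes in every library. In GRCm38 it lies at chr16:17925223-17928219 on the reverse strand, and its start-site peak overlapped exonic sequence and the bases before the gene. The fold was 4.03 in WT 1 and 3.88 in WT 2, and 3.77, 3.05 and 4.03 in TPdh-/- 1, 2 and 3. The peak ranked 347 of 15962 and 530 of 8859 in WT, and 384 of 4920, 1242 of 5419 and 364 of 9418 in TPdh-/-. As percentiles these were 97.8 and 94.0 in WT and 92.2, 77.1 and 96.1 in TPdh-/-, so 4 libraries stood close together, TPdh-/- 2 was lower, and the groups overlapped. Peak width was 1104 and 909 bp for WT, against 768, 1034 and 1067 bp for TPdh-/-. WT 1 alone had a further peak on each side, 5951 bp upstream and 4907 bp downstream of the nearest start site of the gene, at percentiles of 47.6 and 34.7.

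The 250 bases before the start site of *Slc25a1* and of *Acly* are shown because these consecutive steps of a pathway had a start-site peak in all 5 libraries and in WT 1 alone, and those before the RefSeq start site of *Acaca* because no library had a peak at that gene. That start is 1 of 8 annotated and lies inside the gene, not at its 5′ end, so its sequence is not matched in position to the others. They are the reference sequence of RefSeq on GRCm38.p6, written 5′ to 3′ on the strand of the gene, with matches of 6 motifs on either strand in capitals. The stretches are chr16:17928220-17928469, chr11:100528001-100528250 and chr11:84195188-84195437, in that order.
Slc25a1: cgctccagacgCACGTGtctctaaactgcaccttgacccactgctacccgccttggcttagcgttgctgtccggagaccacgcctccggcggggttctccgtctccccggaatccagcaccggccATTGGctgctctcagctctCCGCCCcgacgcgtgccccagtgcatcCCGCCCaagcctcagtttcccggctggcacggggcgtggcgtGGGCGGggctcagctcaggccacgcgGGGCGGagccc
Acly: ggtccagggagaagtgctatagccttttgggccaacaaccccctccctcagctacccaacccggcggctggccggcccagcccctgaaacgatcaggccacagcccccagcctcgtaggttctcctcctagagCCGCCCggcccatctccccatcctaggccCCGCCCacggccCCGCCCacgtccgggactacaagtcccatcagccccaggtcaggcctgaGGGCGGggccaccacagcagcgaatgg
Acaca: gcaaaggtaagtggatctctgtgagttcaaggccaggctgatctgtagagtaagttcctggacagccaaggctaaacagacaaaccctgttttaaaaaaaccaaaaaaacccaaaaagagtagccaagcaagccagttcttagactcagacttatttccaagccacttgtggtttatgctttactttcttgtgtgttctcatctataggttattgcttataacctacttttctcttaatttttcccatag
The motif GGGCGG is the GC box bound by SP factors, and the CCAAT box is bound by NF-Y. The letters CACGTG are an E box, and TCACNCCAC is the core of a sterol response element. The ETS motif was searched as CCGGAAG and the NRF1 motif as GCGCATGCG, a near-palindrome that can be counted on both strands. The peaks of all 5 libraries reached into the *Slc25a1* stretch and none reached into the other 2, although the WT 1 peak of *Acly* ended just short of its stretch, at 100527998. *Slc25a1* held 4 GC boxes, 1 E box and 1 CCAAT box, *Acly* held 4 GC boxes, and the *Acaca* stretch held no match. G and C made up 70% of the stretch in *Slc25a1* and 68.8% in *Acly*, and 39.2% of the internal stretch of *Acaca*, which was 56.4% repeat sequence. Of 20150 promoters of coding genes, 44.1% held a GC box, 35.0% CCAAT, 6.78% the E box, 1.03% the sterol core, 9.28% the ETS motif and 2.02% the NRF1 motif. Promoter sequence was held for 7 of the 9 genes, without *Crat* and *Acat1*, and of these 5 held a GC box, 3 CCAAT, 2 the E box, 1 the ETS motif (*Acss2*), 1 the NRF1 motif (*Slc33a1*) and 0 the sterol core. A match is a stretch of letters and not a measured binding site.

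*Acly*, which cleaves the exported citrate, had a called peak at its start site in WT 1 alone. The gene lies at chr11:100476353-100528000 on the reverse strand. The start-site peak of WT 1 was 901 bp wide, with a fold of 2.80 and rank 8961, the 43.9 percentile. Both WT libraries had a further peak 3′ of the gene, at a percentile of 79.5 in WT 1 and 30.0 in WT 2, which lay at the start site of the neighbour *Klhl11*. No TPdh-/- library had a peak within 10 kb of *Acly*, and the nearest were 60.4, 46.5 and 35.2 kb away. Peaks thus spanned 1811 bp in WT 1, 556 bp in WT 2 and 0 bp in each TPdh-/- library, and 910 and 556 bp of it belonged to the *Klhl11* start. The groups did not overlap (exact permutation test, two-sided, p = 0.2, the smallest the 10 arrangements of the libraries allow, and 0.769 after Benjamini-Hochberg adjustment over 12312 genes). No gene could pass a threshold of 0.05 in this design.

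Acetate activation is divided between a mitochondrial and a nuclear and cytosolic enzyme, and both of their genes had peaks in most libraries. *Acss1*, the mitochondrial enzyme, lies at chr2:150618105-150668500 on the reverse strand. Its start-site peak had a fold of 2.43 and 2.62 in WT, and of 2.76 and 2.65 in TPdh-/- 1 and 3, and it was not called in TPdh-/- 2. The percentiles were 75.8 and 60.5 in WT, and 55.8 and 69.2 in TPdh-/- 1 and 3, with TPdh-/- 3 above WT 2. In TPdh-/- 2 the nearest called peak lay 371 kb from the gene. Its width was 1793 bp in WT 1, 729 bp in WT 2, 613 bp in TPdh-/- 1 and 1400 bp in TPdh-/- 3, so it was wider in the longer list of each group (p = 0.4, exact permutation test of the length under peaks, two-sided). A noncoding transcript, *E130215H24Rik*, starts under the same peak on the other strand, so the acetylation cannot be assigned to *Acss1* alone.

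*Acss2*, the enzyme that makes acetyl-CoA from acetate in the cytosol and nucleus, was marked at its start and, in all 5 libraries, inside the gene. It lies at chr2:155517948-155585724 on the forward strand. The start-site peak had a fold of 2.75 and 2.86 in WT and of 2.45 and 2.49 in TPdh-/- 2 and 3, and was not called in TPdh-/- 1. Its percentile was 72.4 and 63.6 in WT against 12.4 and 38.3 in TPdh-/- 2 and 3, which are places within lists of different lengths and only of the libraries with a called peak. An alternative start of the divergent gene *Ggt7* lies under the same 4 peaks.

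The internal region of *Acss2*, chr2:155552313-155555363, began 3081 bp from the nearest annotated start site of the gene. It lay mostly in an intron, touched an exon of *Acss2* and was overlapped by the antisense transcript *Acss2os*. Peaks there had a fold of 2.07 and 2.56 in WT and of 2.37, 2.31 and 2.37 in TPdh-/-. Their percentiles were 79.0 and 92.7 in WT and 65.6, 71.4 and 85.3 in TPdh-/-, with TPdh-/- 3 between the WT libraries. In each of the 4 libraries that had both, the internal peak ranked above the start-site peak, although its fold was lower in all 4. Its base composition was unlike a start site, with 39.2% G and C and a ratio of observed to expected CpG of 0.0602, against 61.3% and 0.711 at the start. The middle 300 bases of the 461 that all 5 peaks share are shown because this is where every library had signal at *Acss2*. They lie at chr2:155552755-155553054 of GRCm38.p6, on the forward strand, in an intron, and hold none of the 6 motifs.
Acss2 intron: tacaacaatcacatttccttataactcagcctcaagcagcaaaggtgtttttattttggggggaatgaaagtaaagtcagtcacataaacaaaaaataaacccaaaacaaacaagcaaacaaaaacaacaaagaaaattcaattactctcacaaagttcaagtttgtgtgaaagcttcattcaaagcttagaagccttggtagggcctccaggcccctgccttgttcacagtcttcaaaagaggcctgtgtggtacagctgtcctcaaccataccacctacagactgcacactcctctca
WT 1 alone had 2 further peaks, in an intron at the 24.2 percentile and at the start of the neighbour *Gss* at the 5.66 percentile. Over all of *Acss2*, peaks spanned 6305 and 1404 bp for WT, and 1029, 2169 and 1891 bp for TPdh-/-. WT 2 lay below TPdh-/- 2 and 3, and without WT 1 the difference of the means changed from 2.16 to -0.292 kb.

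**Figure D2:**
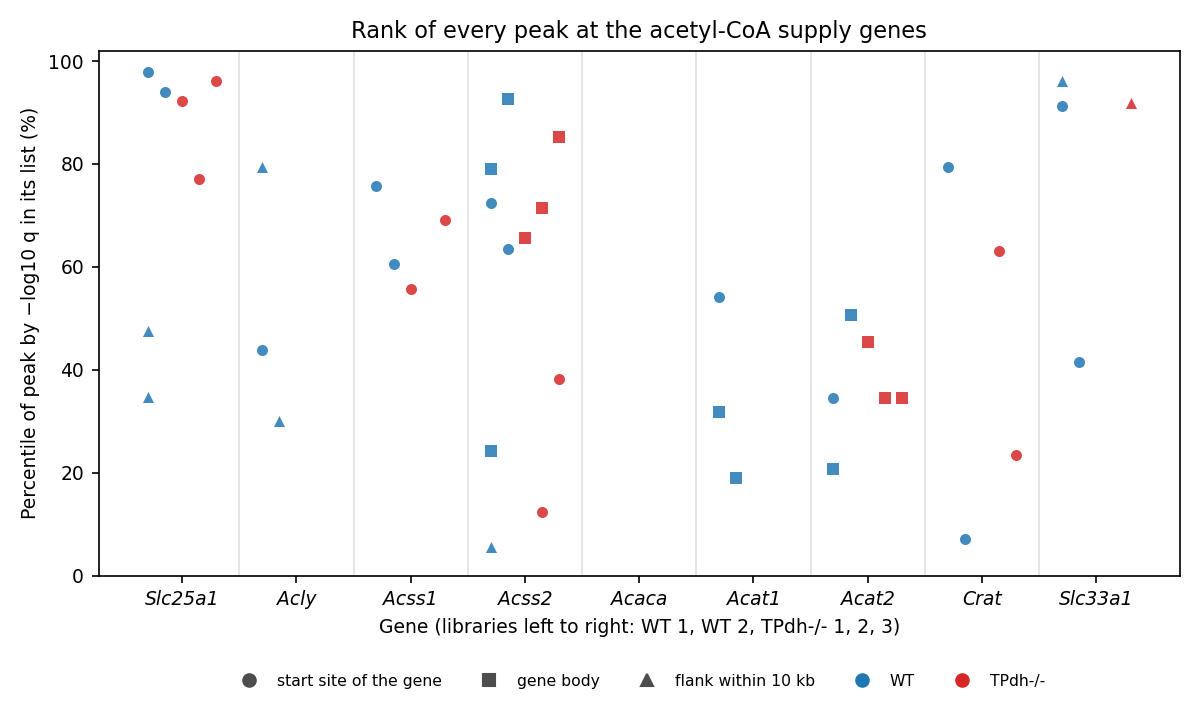
Percentile (%) of every peak at the 9 genes by −log10 q within its own list, with WT in blue and TPdh-/- in red and libraries in the same order within each gene. Circles are peaks at a start site of the gene, squares lie in the gene body and triangles in the flanks. *Slc25a1* holds its circles between 77.1 and 97.8 in all 5 libraries, while the *Acss2* circles of TPdh-/- lie at 12.4 and 38.3.

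*Acaca*, which turns acetyl-CoA into malonyl-CoA, had no peak in any library. The gene is the longest of the 9, from 84129672 to 84401651 on chromosome 11 on the forward strand, with 8 annotated start sites, and its window spans 292 kb. The nearest peaks were 111 and 187 kb away in WT, and 340, 417 and 187 kb away in TPdh-/-. Among 657 protein-coding genes at least as long as *Acaca*, 38.8% likewise had no peak in any library, and among all protein-coding genes 43.9% had none.

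Among the thiolases, *Acat1*, the mitochondrial enzyme of ketone body breakdown, had peaks in WT alone. It lies at chr9:53580522-53610382 on the reverse strand. An intronic peak, 6354 and 6818 bp from the nearest start site, was called in both WT libraries with a fold of 2.62 and 2.58 and percentiles of 31.8 and 19.1. The start-site peak was called in WT 1 alone, at a fold of 2.96 and the 54.1 percentile. The nearest TPdh-/- peaks were 42.7, 56.4 and 42.7 kb from the gene. The length under peaks was 1820 bp in WT 1, 546 bp in WT 2 and 0 bp in TPdh-/- (exact permutation test, two-sided, p = 0.2, adjusted p = 0.769). These peaks were weak in their own lists, and neither WT library had a peak at *Acat1* among its 4920 strongest. With *Acly*, it is 1 of 2 of the 9 genes with a peak within 10 kb in each WT library and in no TPdh-/- library, a pattern of 2.92% of protein-coding genes.

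*Acat2*, the cytosolic thiolase at the head of sterol synthesis, had a peak around its 3′ end in all 5 libraries. Like *Acat1*, it had one at its start in WT 1 alone. It lies at chr17:12942890-12960747 on the reverse strand. The region around the 3′ end, chr17:12941532-12943504, came to within 932 bp of the start of the neighbouring paralog *Acat3*. In every library the nearest start to this peak was that of *Acat3*, 932 to 1599 bp away, within the 3 kb used for start sites. The nearest start of *Acat2* was 12841 to 13484 bp away. The stretch that all 5 peaks share, 12942199 to 12942861, lies outside *Acat2*, so the acetylation there cannot be assigned to *Acat2*. The fold there was 2.03 and 2.38 in WT and 2.64, 2.40 and 2.25 in TPdh-/-. The percentiles were 20.7 and 50.6 in WT and 45.5, 34.5 and 34.6 in TPdh-/-, with the WT libraries at both extremes. Both WT peaks, 1895 and 1546 bp wide, were wider than the TPdh-/- peaks of 663, 865 and 1276 bp. At the start site, WT 1 alone had a peak, of fold 2.66 and the 34.6 percentile. With this, peaks spanned 2735 bp in WT 1 against 1546 bp in WT 2, and TPdh-/- values stayed below both (exact permutation test, two-sided, p = 0.2, adjusted p = 0.769). In WT 2 and in TPdh-/- all of this length lay in the region nearest *Acat3*, and in WT 1 all but 840 bp. The lists were made from reads that map to 1 place, so reads that would suit *Acat2* and *Acat3* alike were not counted at either.

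**Figure D3:**
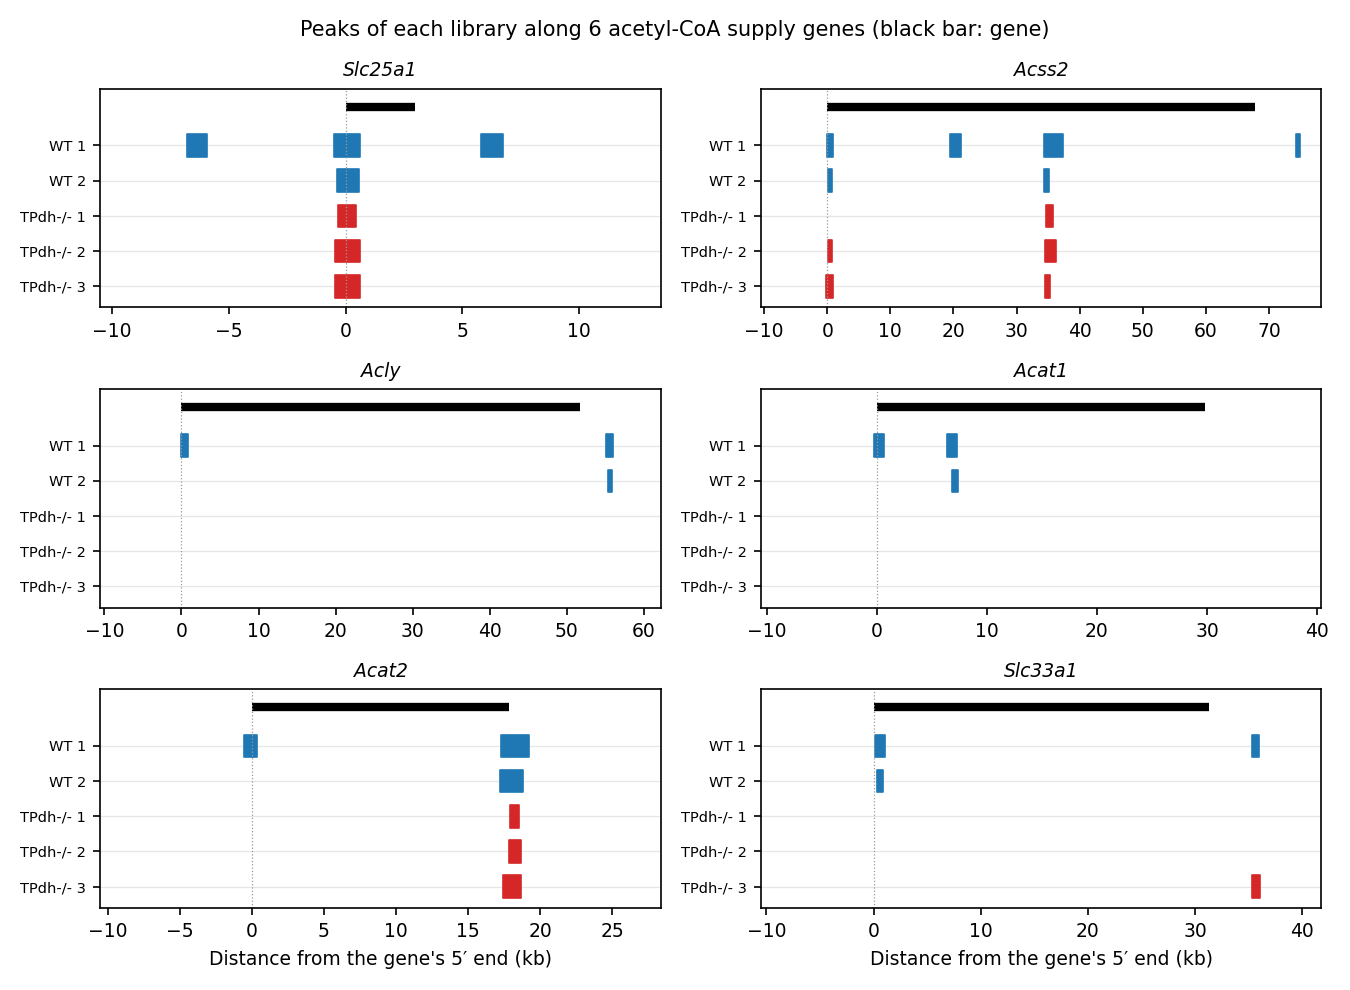
Peaks of each library (blue WT, red TPdh-/-) along 6 of the genes, by distance from the 5′ end of the gene in kb; the black bar is the gene, and the axis ends about 10 kb beyond it. All 5 rows have a bar at the *Slc25a1* start, inside *Acss2* and around the 3′ end of *Acat2*, while the TPdh-/- rows of *Acly* and *Acat1* are empty.

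Of the genes that store or move acetyl groups, *Crat* encodes the enzyme that exchanges them between CoA and carnitine. It lies at chr2:30400471-30415813 on the reverse strand. A start-site peak was called in 4 libraries, with a fold of 3.22 and 2.45 in WT and of 3.07 and 2.52 in TPdh-/- 2 and 3. The percentiles were 79.5 and 7.12 in WT and 63.0 and 23.5 in TPdh-/- 2 and 3, so WT 2 had the weakest of the 4. The peaks also covered the start of the divergent gene *Ptpa* in WT 1, WT 2 and TPdh-/- 3, and that of TPdh-/- 2 stopped short of it. Peaks spanned 1427 and 701 bp for WT, against 0, 573 and 1173 bp for TPdh-/-, and the groups overlapped.

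*Slc33a1*, which carries acetyl-CoA into the endoplasmic reticulum, lies at chr3:63933507-63964768 on the reverse strand. Its start-site peak had a fold of 3.77 and 2.77 in WT, with percentiles of 91.3 and 41.5, and no TPdh-/- library had one. WT 1 and TPdh-/- 3 also had a peak 3′ of the gene, at percentiles of 96.1 and 91.9, which covered the start of *E130311K13Rik*. TPdh-/- 3 thus had a strong peak at the neighbour and none at *Slc33a1*. In TPdh-/- 1 and 2 the nearest peaks were 1564 and 1993 kb away. In WT, peaks spanned 1593 and 554 bp, and 0, 0 and 728 bp was found in TPdh-/-. An antisense transcript, *Gm26850*, overlaps the start-site region, so strand cannot be told from these peaks.

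Set side by side, the length under peaks did not overlap between the groups at 3 of the 9 genes, *Acly*, *Acat1* and *Acat2*, all with WT higher. In WT 2 all of the length at *Acly* and *Acat2* lay nearest the start of a neighbour, *Klhl11* or *Acat3*. With lists of 4920 peaks each, none of these separations was left: WT 2 joined TPdh-/- at 0 bp for *Acly*, all libraries were at 0 bp for *Acat1*, and for *Acat2* WT 1 was at 0 bp with 663 and 865 bp in TPdh-/- 1 and 2. It overlapped at 5, with p between 0.4 and 0.6 (exact permutation test, two-sided), and was 0 bp in all libraries at *Acaca*. Of 12312 protein-coding genes with a peak in any library, 26.0% had a longer length in both WT than in all TPdh-/- libraries and 0.0569% the reverse. On that base, without *Acaca*, the list gave 3 of 8 genes, which is near the background share for so few genes. The median difference was 1069 bp over the 8 genes with a peak and 584 bp over the 12312, as a description, and without WT 1 they were 215 and 86.0 bp. Summed over the 9 genes, the length was 20397 and 6945 bp for WT, against 3073, 4641 and 7535 bp for TPdh-/-, where TPdh-/- 3 exceeded WT 2. The means were 13671 ± 9512 bp (SD, n = 2) and 5083 ± 2264 bp (SD, n = 3). Without WT 1 the difference of the means was 1.86 kb, against 8.59 kb with it.

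**Figure D4:**
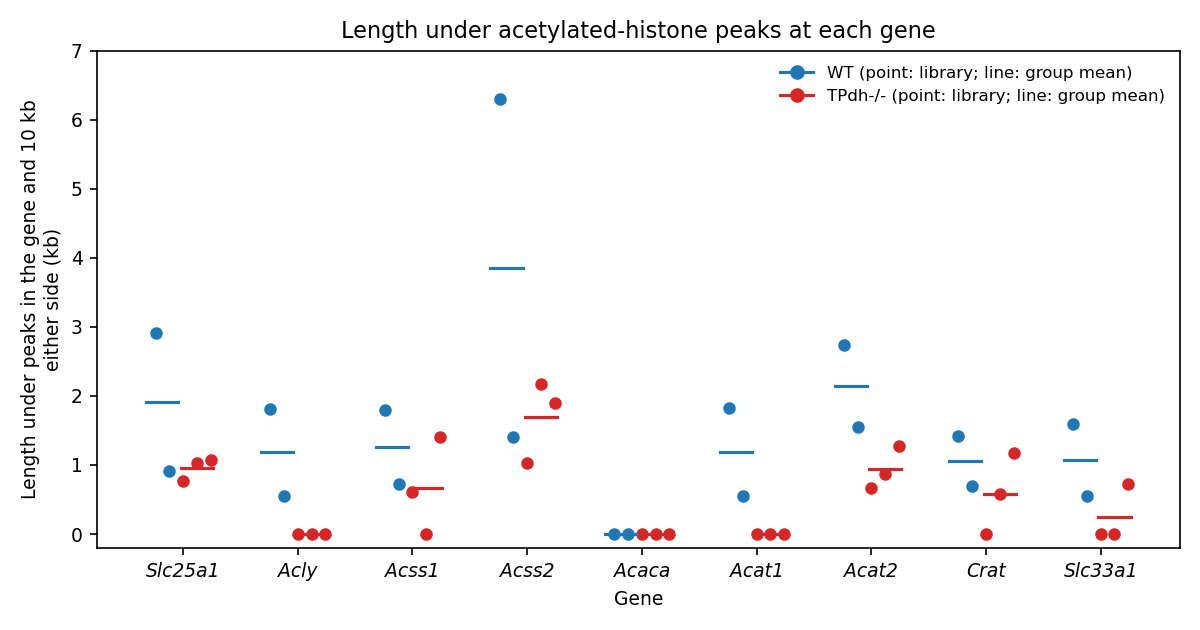
Length under peaks (kb) in each of the 9 genes and the 10 kb on either side, with 1 point per library and a line at the mean of each group. WT 1 is the highest point at the 8 genes with a peak, WT 2 lies within the TPdh-/- points at *Slc25a1*, *Acss1*, *Acss2*, *Crat* and *Slc33a1*, and *Acly* and *Acat1* have all 3 TPdh-/- points at 0.

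The 42 peaks merged into 17 regions, of which 8 lay at a start site of the gene, 4 in or across a gene body and 5 in the flanks. All 5 libraries had a peak in 3 regions, the *Slc25a1* start, the *Acss2* intron and the region around the 3′ end of *Acat2*, nearest the *Acat3* start. WT 1, which had the longest list, was alone in 7 regions, and no region had a TPdh-/- peak without a WT peak. The shares of these patterns over all regions of the lists were not counted, so they are not read as traits of these genes. By length per gene, 0.0569% of 12312 protein-coding genes were higher in all TPdh-/- than in both WT libraries. Start-site regions were rich in G and C, with a median of 60.1% (range 56.4% to 67.4%). Their median ratio of observed to expected CpG was 0.695. The medians over all peaks of a list were between 51.1% and 52.6% and between 0.358 and 0.451. Those lists mix peaks at start sites with others, and start-site peaks of other genes were not measured. Whether the contrast is particular to these genes was thus not tested. The 5 regions in the flanks had similar medians, 60.1% G and C (range 48.1% to 66.2%) and a CpG ratio of 0.705. The 4 regions of gene bodies had a median of 44.5% G and C and a CpG ratio of 0.158. Of the 3 regions found in all libraries, only that of *Slc25a1* was thus of the composition of a start site.

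Other genes of acetyl-CoA metabolism were set beside these, as 25 genes in 6 groups. A start-site peak was called at 22 and 13 of them in WT 1 and 2 and at 6, 3 and 13 in TPdh-/- 1, 2 and 3, so WT 2 and TPdh-/- 3 had the same number. All 5 libraries had one at 3, named after their values were seen, the cytosolic aconitase *Aco1* and the thiolase genes *Acaa1a* and *Hadhb*. Over all protein-coding genes, 10.9% had one in all 5 libraries. Both WT libraries but none of TPdh-/- had one at 2, *Oxct1*, which activates ketone bodies for oxidation, and *Acaa2*, a mitochondrial thiolase. Over all protein-coding genes the share with that pattern was 2.21%. No gene of the 25 had one in all TPdh-/- and no WT library, a pattern whose share over all protein-coding genes was not counted. In the group for acetate and ketone bodies, 4 and 3 of 6 genes had a start-site peak in WT and 0, 0 and 2 in TPdh-/-. In the citrate group the counts were 5 and 3 of 6 in WT and 1, 1 and 4 in TPdh-/-, and TPdh-/- 3 exceeded WT 2. Among the 4 genes of malonyl-CoA and fatty acid synthesis they were 4 and 1 in WT and 1, 0 and 2 in TPdh-/-. The 3 thiolase genes gave 3 and 3 against 2, 2 and 2, the 4 carnitine genes 4 and 2 against 2, 0 and 2, and the 2 sterol genes 2 and 1 against 0, 0 and 1. Over all protein-coding genes the start-site shares were 42.1% and 24.8% in WT and 15.3%, 16.5% and 27.9% in TPdh-/-. The citrate importer *Slc13a5* had no peak within 10 kb in any library, as was found for *Acaca*.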

How the data were processed

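ChIPseq peak lists of 2 WT and 3 TPdh-/- libraries of TM cells were used. The authors aligned reads to GRCm38/mm10 with BWA 0.7.17, kept uniquely mapping reads outside blacklisted regions with SAMtools 1.15.1 and called broad peaks per library with MACS2 2.2.6; no input control is named. Per the file format, the deposited lists give a fold enrichment (a linear ratio), −log10 p and −log10 q, averaged over each broad peak by the caller, and a whole-number score of 10 times −log10 q, which was not used. Peaks were assigned with the GENCODE M21 annotation (GRCm38) by an overlap of 1 bp with the gene and 10 kb on each side, or with 3000 bp around any annotated start site, in Python 3.11.15 with numpy 2.4.6 and pandas 2.3.3. Base composition and promoters came from RefSeq GRCm38.p6, and 0 peaks ended beyond a chromosome. The length under peaks of each gene was compared by an exact permutation test over 10 arrangements, two-sided p being double the smaller one-sided p, with Benjamini-Hochberg adjustment over 12312 genes. The measures were tested on simulated peak lists. The 9 genes and all lists were chosen with earlier results of these data known. The genes named are the 9, neighbours whose start lies within 3000 bp of a peak at them, and of the 25 others those with a start-site peak in both WT libraries alone, in all TPdh-/- libraries alone, or with no peak within 10 kb; *Acss2os* and those in all 5 libraries were added after their values were seen. The read depth of each library is unknown, so no interval for counting error is given. Some single genes of these lists are not reported here.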

Additional observations from a re-analysis of the deposited data

How the results depend on the processing

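Alternatives were stricter −log10 q limits (2 and 5), equal list lengths, a window of 3 kb or the gene body alone, start sites within 1000 bp, assignment to the nearest start site, leaving out each library, and the replicate block. The difference between WT and TPdh-/- in the number of the 9 genes with a peak within 10 kb was 3.33, and became 2.33 with the limit of 2 and 1 with lists of equal length. For start-site peaks it was 3.5, and became 1.67 with lists of equal length. These moved by more than the SD between libraries, as did the start-site count and the summed length when WT 1 or WT 2 was left out; the other alternatives moved these counts and that length by less. Leaving out 1 library gave 3 to 4 for peaks within 10 kb, 2 to 5 for start-site peaks (2 without WT 1, 5 without WT 2), 1.86 to 15.3 kb for the summed length (1.86 without WT 1, 15.3 without WT 2) and 1.75 to 11.3 points for the *Slc25a1* percentile (1.75 without TPdh-/- 2), whose main difference was 7.44. At single genes, the difference in length turned negative at *Acss2* (-0.292 kb) and *Slc25a1* (-0.0473 kb) without WT 1, and at *Crat* (-0.005 kb) with the gene body alone. Without WT 2 it was 4.61 kb at *Acss2* and 1.96 kb at *Slc25a1*. It became 0 at *Acat1* with lists of equal length, and at *Acat1* and *Acat2* with the limit of 5, since no peak was left. TPdh-/- 2 had no *Slc25a1* peak at the limit of 5, so that setting gave no percentile difference.

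The replicate numbers are not stated to pair libraries, and only 2 pairs exist. The correlation of their deviations over 12312 genes was 0.0126. With the replicate block, without TPdh-/- 3, the differences were 4 genes within 10 kb, 4 genes at start sites, 9.81 kb and 11.3 points, and no direction changed.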
